A study of Mus musculus with 10 samples.

Results

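The epidermal differentiation complex is a cluster of genes for the proteins that build the cornified envelope, the crosslinked protein shell of the dead outer cells of skin. Its members here were taken by gene name: every gene whose symbol starts with Lce or Sprr, and Flg, Flg2, Hrnr, Rptn, Kprp, Lor, Ivl, Crnn, Tchh, Tchhl1, Crct1 and Lelp1. The rule found 45 genes, 42 of them in both deposited tables, against 17756 genes common to both. Of the 18502 genes for the Eed libraries 44 were in the set, and of the 18344 genes for the Ring1 libraries 43. Lce3a and Lce3f had a row in the Eed table alone and Lelp1 in the Ring1 table alone, and Tchhl1 had none in the tables used.

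RNA sequencing compared back-skin epidermal cells of mice that lack a Polycomb subunit with their own controls at postnatal day 71. The groups were Eed knockout (Eed -/-, n = 3) with Eed control (n = 3), and Ring1a/b 2KO (Ring1a-/- Ring1b-/-, n = 2) with Ring1 control (n = 2). Eed is a core subunit of Polycomb repressive complex 2, while Polycomb repressive complex 1 holds the ubiquitin ligases Ring1a (gene Ring1) and Ring1b (gene Rnf2). Knockouts and controls alike fall under a protocol of topical 4-hydroxytamoxifen in ethanol at 20 mg/ml, 100 µl a day for 4 days from postnatal day 50, on shaved skin. The sources used here do not give the driver of the recombinase, the alleles of the control mice, the strain or the sex. Cells were sorted as positive for EpCAM and Sca1 and high for α6-integrin, a gate that enriches the basal layer of the epidermis between hair follicles. No label says that the libraries come from different mice, and p-values then measure only the spread between these libraries.

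As keratinocytes leave the basal layer they switch on keratins 1 and 10, and in the granular layer they make loricrin, involucrin, small proline-rich (Sprr) and late cornified envelope (Lce) proteins. Transglutaminases crosslink these proteins beneath the cell membrane. Filaggrin and its relatives (filaggrin 2, hornerin, repetin, cornulin, trichohyalin) carry an S100 domain at their start, and filaggrin bundles keratin filaments. Sprr proteins act as cross-bridges between other envelope proteins, and several of them are induced in stressed or wounded skin.

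All 45 members lie on mouse chromosome 3 between bases 92080271 and 93449077 of GRCm38 (mm10), a span of 1369 kb (GENCODE M21). The families sit in blocks, from Lor through the Sprr genes and Ivl to the Lce genes, and then Crnn, Flg2, Flg, Hrnr, Rptn and Tchh. RefSeq promoter windows of 300 bases, 250 before and 50 after the annotated start (GRCm38.p6), were found for 41 of the 45 members. Crct1, Kprp, Lce1f and Sprr2j-ps had no entry. The windows of 6 members that the authors' table called are shown, since they stand for both directions of difference in the Ring1a/b 2KO. Capitals mark each match to the AP-1 motif TGANTCA, bound by Fos and Jun factors, and to the TATA box TATAAA. Lor is at chr3:92083093-92083392 (- strand), Flg2 at chr3:93197023-93197322 (+ strand), Lce1m at chr3:93019012-93019311 (- strand), Lce1c at chr3:92678997-92679296 (+ strand), Sprr1b at chr3:92438730-92439029 (- strand) and Sprr2d at chr3:92338890-92339189 (+ strand), each written 5′ to 3′ on its gene's strand.
Lor: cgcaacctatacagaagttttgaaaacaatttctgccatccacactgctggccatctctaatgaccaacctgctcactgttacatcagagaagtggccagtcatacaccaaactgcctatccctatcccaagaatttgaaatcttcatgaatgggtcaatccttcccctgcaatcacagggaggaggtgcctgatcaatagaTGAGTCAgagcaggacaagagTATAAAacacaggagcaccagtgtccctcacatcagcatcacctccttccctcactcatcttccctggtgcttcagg
Flg2: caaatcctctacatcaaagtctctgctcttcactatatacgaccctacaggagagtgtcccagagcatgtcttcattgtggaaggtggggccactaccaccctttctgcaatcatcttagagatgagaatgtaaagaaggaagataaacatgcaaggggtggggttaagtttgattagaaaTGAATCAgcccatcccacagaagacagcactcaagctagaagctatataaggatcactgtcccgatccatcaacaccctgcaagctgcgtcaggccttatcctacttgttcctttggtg
Lce1m: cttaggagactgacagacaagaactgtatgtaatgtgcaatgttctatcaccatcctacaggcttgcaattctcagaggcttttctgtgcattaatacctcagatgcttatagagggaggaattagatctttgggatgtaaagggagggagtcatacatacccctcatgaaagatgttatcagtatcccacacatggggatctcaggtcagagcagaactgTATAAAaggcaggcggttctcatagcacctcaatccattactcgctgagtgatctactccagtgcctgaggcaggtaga
Lce1c: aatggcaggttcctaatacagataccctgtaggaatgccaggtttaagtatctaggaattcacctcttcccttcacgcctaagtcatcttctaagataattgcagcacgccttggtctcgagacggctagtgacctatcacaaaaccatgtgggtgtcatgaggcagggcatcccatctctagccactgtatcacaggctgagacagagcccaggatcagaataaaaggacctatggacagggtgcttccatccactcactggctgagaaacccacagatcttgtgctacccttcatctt
Sprr1b: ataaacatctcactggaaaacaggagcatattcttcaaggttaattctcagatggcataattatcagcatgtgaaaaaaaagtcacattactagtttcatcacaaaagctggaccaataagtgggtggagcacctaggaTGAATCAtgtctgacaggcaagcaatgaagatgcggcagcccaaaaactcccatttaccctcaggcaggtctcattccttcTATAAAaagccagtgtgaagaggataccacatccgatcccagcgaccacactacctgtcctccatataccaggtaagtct
Sprr2d: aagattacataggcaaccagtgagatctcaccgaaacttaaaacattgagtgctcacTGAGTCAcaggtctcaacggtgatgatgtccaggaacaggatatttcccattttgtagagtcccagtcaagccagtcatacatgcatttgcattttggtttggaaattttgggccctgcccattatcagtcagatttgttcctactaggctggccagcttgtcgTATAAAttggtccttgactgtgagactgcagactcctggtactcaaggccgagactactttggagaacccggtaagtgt

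In these windows the AP-1 match began at position -48 from the start in Lor, -69 in Flg2, -111 in Sprr1b and -193 in Sprr2d. The TATA match began at -27 in Lor, -29 in Lce1m and Sprr2d, and -30 in Sprr1b, and the Lce1c window held neither run of letters. Both strands were searched. The AP-1 letters were in 15 of 41 member windows (36.6%), against 7.81% of 32851 RefSeq windows of the same length. TATAAA was in 19 of 41 (46.3%), against 13.6%. The families differed: 9 of 13 Sprr windows and 6 of 9 of the single and S100-fused genes held the AP-1 letters, against 0 of 19 Lce windows. For TATAAA the counts were 9 of 13, 6 of 9 and 4 of 19. Among the Lce windows, the Lce3e and Lce6a matches began far upstream, at -243 and -218, on the other strand. The AP-1 and TATA matches overlapped in 0 windows. Of 4 other motifs searched, the ETS core AGGAAG was in 21 of 41 member windows (35.4% of all), the C/EBP type TTNNGNAA in 26 (40.7%), the Klf type GGGNGGG in 5 (48.1%) and the Grainyhead type AACNGGTT in 1 (2.09%). In 2 member windows a match to 1 motif overlapped a match to another. The Sprr2a1 and Sprr2a2 windows were identical over all 300 bases and held neither AP-1 nor TATAAA letters. Their last bases, gggtgaggcagg, also stand in the Sprr2b window, where TATAAA follows shortly after. Bases past the windows were not searched, so the absence holds for these windows only. A letter match is a description of sequence and shows no binding.

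The reads behind the values numbered 31699979 to 40701183 in Eed knockouts, 32667439 to 39006853 in Eed controls, 19814853 and 6237389 in Ring1a/b 2KO, and 25158144 and 7162907 in Ring1 controls. Library 2 of each Ring1 group was the shallower one. Markers of basal keratinocytes were abundant in every library: Krt14 lay between 348638 and 662363 normalised read counts in the Eed table and between 57540.5 and 92857 in the Ring1 table. Summed Ddx3y and Eif2s3y, a pair of Y-linked genes, stood at 9.27 and 50.2 in Ring1a/b 2KO libraries and at 1665 and 629.8 in Ring1 controls, so the Y-linked level and the knockout cannot be told apart there. In the Eed table this sum was 14.4, 4743 and 26.8 in knockouts 1 to 3 and 5804, 4058 and 25.3 in controls 1 to 3. The deleted genes themselves were still read: Eed averaged 1298 ± 139 in Eed knockouts and 1623 ± 272 in Eed controls (SD, n = 3 each). Ring1 had 104 and 115 in Ring1a/b 2KO against 66.2 and 211 in Ring1 controls, and Rnf2 had 720.1 and 529 in Ring1a/b 2KO against 675 and 669.7 in Ring1 controls. None of the 3 was called, and the sources used here do not name the deleted exons. Knockout status therefore rests on the labels.

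The first comparison asks how the complex differs in epidermis without Ring1a and Ring1b. Some genes of the outermost layers, among them Lor, Flg2, Kprp, Crct1 and Lce1m, were lower in both Ring1a/b 2KO libraries than in both Ring1 controls, and several Sprr genes were higher. For Flg, Ivl, Tchh and Rptn the groups overlapped. In the authors' deposited table, Crct1, Flg2, Kprp, Lor, Lce1m and Lce1c fell, with log2 fold changes of -2.74, -2.93, -2.26, -2.17, -2.93 and -2.95. Sprr1b, Sprr2a2 and Sprr2d rose in that table, by 3.88, 1.61 and 7.07. These 9 are 9 of the 29 members with an adjusted p in the deposited table, beside a background of 1.49% of all genes called there, 0.31% lower and 1.18% higher. limma on log2(value + 1), the test used for all genes here, called 0 of 28 members, with a background of 0.0392%. At an unadjusted p under 0.05 it had 10 members lower and 2 higher, against 10.4% of all genes, 4.81% lower and 5.62% higher. edgeR's quasi-likelihood test on the recovered reads called 0 of 24 members (background 0.0%), with 12 under an unadjusted 0.05 (background 9.64%).

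The count of calls moved when a library was left out, a fit that leaves 1 group with a lone library, which is assumed to vary like the other group. DESeq2 on the recovered reads, which gave the same count of 9, called 0 members without Ring1 control 1, where calls over all genes also fell to 39, against 231 with all libraries. The 9 kept their direction there, with Flg2 at a log2 fold change of -2.49, Crct1 at -2.07, Lor at -1.35 and Sprr2a2 at 1.04, and Flg2 had the smallest of their adjusted p (0.0939). Without Ring1 control 2, Ring1a/b 2KO 1 or Ring1a/b 2KO 2 in turn, the DESeq2 log2 fold change of Flg2 was -3.29, -3.82 and -2.43. In the same order it was -3.21, -3.38 and -2.35 for Crct1, and -2.69, -2.85 and -1.72 for Lor. For Sprr2a2 it was 2.59, 1.90 and 1.27. In bulk cells, fewer cells of the outer layers and less RNA per cell cannot be told apart.

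Among the single envelope proteins, loricrin (Lor), the most abundant protein of the mature envelope, had 159 and 73.5 normalised read counts in the Ring1a/b 2KO libraries against 754 and 301 in the Ring1 controls. Both knockout values lie below both control values. Its log2 fold change was -2.13 ± 0.57 (limma, ± SE), 4.53-fold lower by group means, with an adjusted p of 0.356 in limma and 0.00592 in the authors' deposited table. Kprp, a keratinocyte proline-rich protein, had 150.2 and 86.1 in Ring1a/b 2KO and 773 and 372 in Ring1 controls. Its difference was -2.23 ± 0.42, with adjusted p = 0.195 in limma and 0.000318 in the authors' deposited table. Crct1, a cysteine-rich protein encoded beside the Lce genes, had 72.3 and 35.9 in Ring1a/b 2KO and 509 and 231 in Ring1 controls. Groups were again apart, by -2.73 ± 0.50, and this was the smallest adjusted p of any member in limma (0.153), with 9.32e-05 in the authors' deposited table. Involucrin (Ivl), an early scaffold of the envelope, did not follow them clearly: it had 92.1 and 55.6 in Ring1a/b 2KO and 159 and 71.5 in Ring1 controls, so the groups overlapped (-0.57 ± 0.51, adjusted p = 0.739). Lelp1 had 1 read in all, in Ring1a/b 2KO 1.

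**Figure D1:**
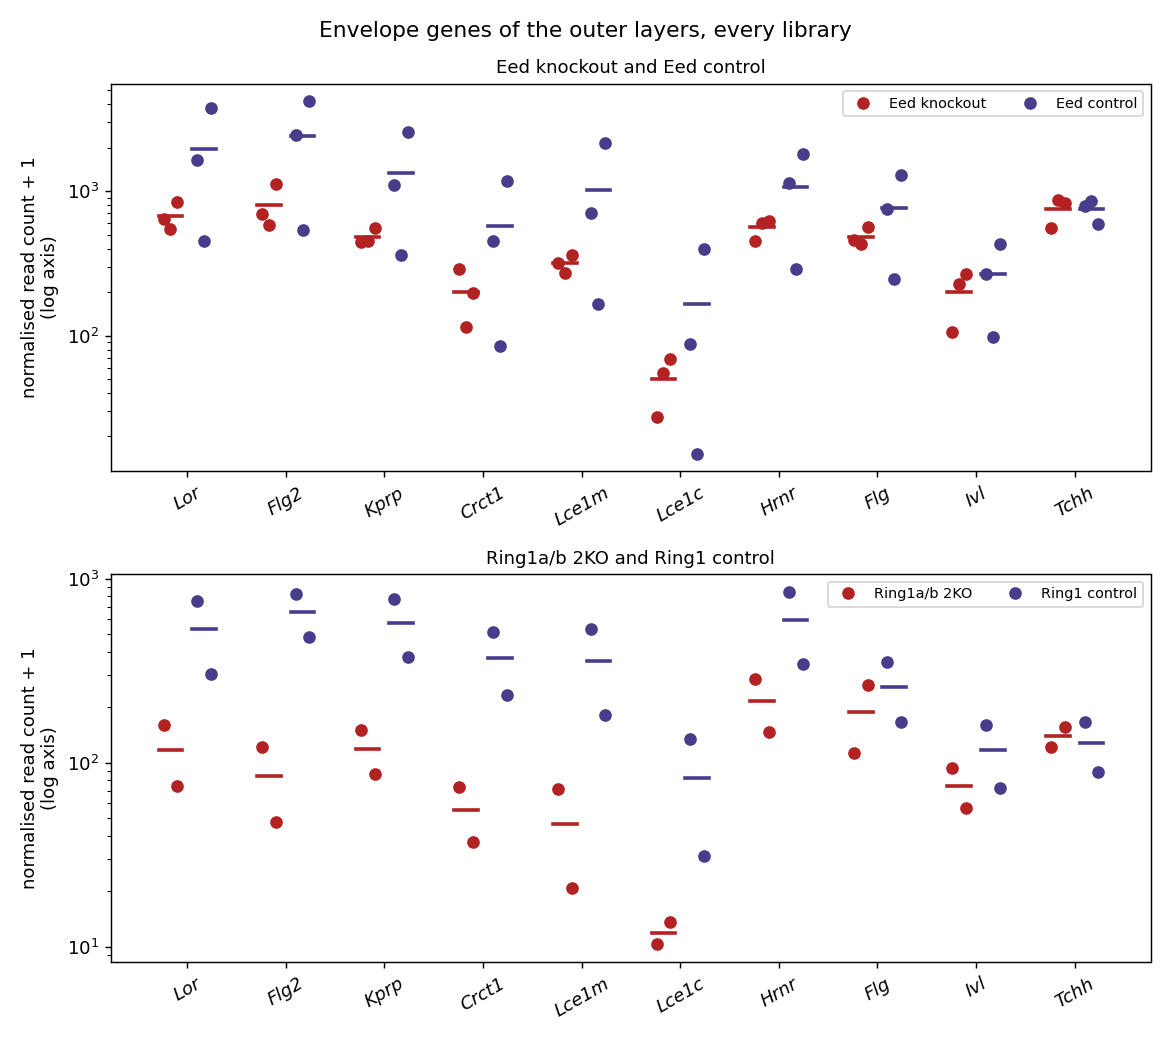
Normalised read count plus 1 (log axis) of 10 envelope genes in each library, knockouts left of their controls, with bars at group means; the 2 tables were normalized separately. In the lower panel both Ring1a/b 2KO points of Lor, Flg2, Kprp, Crct1, Lce1m and Lce1c lie under both Ring1 control points, while in the upper panel Eed control 2 lies lowest and Eed control 3 highest for those genes.

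The Lce family, small envelope proteins added late, was lower in the Ring1a/b 2KO in each of the 12 members that passed the filter of a mean of 5, out of 18 in the table, with a median log2 difference of -1.63, against -0.00 over all 15310 genes. 8 of the 12 had no overlap between groups, against a background of 21.5% of genes without overlap and lower. Lce1e, Lce1f, Lce1g and Lce1l passed the filter only through the controls, so their lower direction is partly set by the filter. Lce1f and Lce1l are among the 8 without overlap. Lce1m had 71.1 and 19.7 in Ring1a/b 2KO and 532 and 181 in Ring1 controls (-3.01 ± 0.79, limma adjusted p = 0.356, and 0.00154 in the authors' deposited table). Lce1m shares 0.926% of its 31-base words with other genes, so its count is nearly its own. Lce1c had 9.27 and 12.6 in Ring1a/b 2KO and 133 and 29.9 in Ring1 controls, a difference of -2.45 ± 0.78, and adjusted p = 0.0483 in the authors' deposited table. Lce1b, which no test called, had 9.89 and 3.59 in Ring1a/b 2KO and 72.9 and 28.3 in Ring1 controls. The 13 other Lce1 genes share 13.2% to 58.8% of their 31-base words with another gene, so their counts are uncertain one by one. Summed over the 14 Lce1 genes, the level was 132 and 115 in Ring1a/b 2KO, against 1065 and 309 in Ring1 controls. The knockout libraries lie close together and both controls lie above them, at levels that differ widely. The 3 Lce3 genes in this table stayed under the filter, with 0 to 6.77 normalised read counts in any library.

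Of the S100-fused proteins, filaggrin 2 (Flg2) showed the clearest separation. It had 121 and 46.6 in the Ring1a/b 2KO libraries against 827 and 480.3 in the Ring1 controls, 7.82-fold lower by group means (-3.05 ± 0.50, limma adjusted p = 0.168; 1.25e-06 in the authors' deposited table). Hornerin (Hrnr), a filaggrin relative, had 283 and 145 in Ring1a/b 2KO and 844 and 344 in Ring1 controls, apart but not called (-1.41 ± 0.54, adjusted p = 0.475). Filaggrin (Flg) did not separate: 111 and 262 in Ring1a/b 2KO and 350.0 and 165 in Ring1 controls (-0.49 ± 0.53, adjusted p = 0.794). Trichohyalin (Tchh), better known from the inner root sheath of hair, had 121 and 154 in Ring1a/b 2KO and 165 and 88.1 in Ring1 controls (0.18 ± 0.41, adjusted p = 0.911). So within the S100-fused group Flg2 and Hrnr lay lower, while the groups overlapped for Flg and Tchh. Repetin (Rptn) had 5.56 and 75.3 in Ring1a/b 2KO and 9.90 and 3.32 in Ring1 controls, with 1 library far above the rest. Cornulin (Crnn) had 1 read in all, in Ring1a/b 2KO 2.

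Several Sprr genes ran the other way. 6 of the 7 that passed the filter were higher in the Ring1a/b 2KO, with a median log2 difference of 1.81. 5 had no overlap between groups, against a background of 21.4% without overlap and higher. Of these 5, Sprr1b and Sprr2d passed the filter only through the knockouts. The others are Sprr2a1, Sprr2a2 and Sprr2a3, whose counts are not separate. Without those Sprr2a genes the family summed to 1420 and 593 in Ring1a/b 2KO and 980 and 693 in Ring1 controls, so the groups overlapped. Sprr1b, an inducible cross-bridging protein, had 22.9 and 100.4 in Ring1a/b 2KO and 5.73 and 1.66 in Ring1 controls. Its ratio of means was 16.7 (3.54 ± 0.95, limma adjusted p = 0.276; 0.0219 in the authors' deposited table), on 12 control reads. Sprr2d had 7.42 and 39.4 in Ring1a/b 2KO and 0 reads in both Ring1 controls. Taking 3 reads per control library as the floor, it was at least 7.16-fold higher, with adjusted p = 0.0354 in the authors' deposited table. Both genes stood much higher in the shallower knockout library than in the deeper one.

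Sprr2a1, Sprr2a2 and Sprr2a3 share 96.9%, 97.8% and 73.6% of their 31-base words with other genes and are read best as a sum. That sum was 8999 and 13944 in Ring1a/b 2KO, against 1826 and 5739.8 in Ring1 controls. Sprr2a2 carried most of it, with 7775 and 12103 in Ring1a/b 2KO and 1636 and 4859 in Ring1 controls (1.78 ± 0.64, limma adjusted p = 0.485; 0.0340 in the authors' deposited table). Sprr2a1 had 517 and 775 in Ring1a/b 2KO and 76.1 and 424 in Ring1 controls (1.81 ± 1.05, adjusted p = 0.661). Sprr2a3 had 708 and 1067 in Ring1a/b 2KO and 114 and 457 in Ring1 controls (1.93 ± 0.83, adjusted p = 0.563). The groups did not overlap for any of the 3. Sprr1a did overlap, with 1327 and 409 in Ring1a/b 2KO and 925 and 668 in Ring1 controls (-0.09 ± 0.67, adjusted p = 0.974). Sprr4 was at 47.0 and 21.5 in Ring1a/b 2KO and 44.8 and 21.6 in Ring1 controls. Of the 7 Sprr genes under the filter, Sprr2h had 7.42 and 3.59 in Ring1a/b 2KO and 0 in both Ring1 controls.

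**Figure D2:**
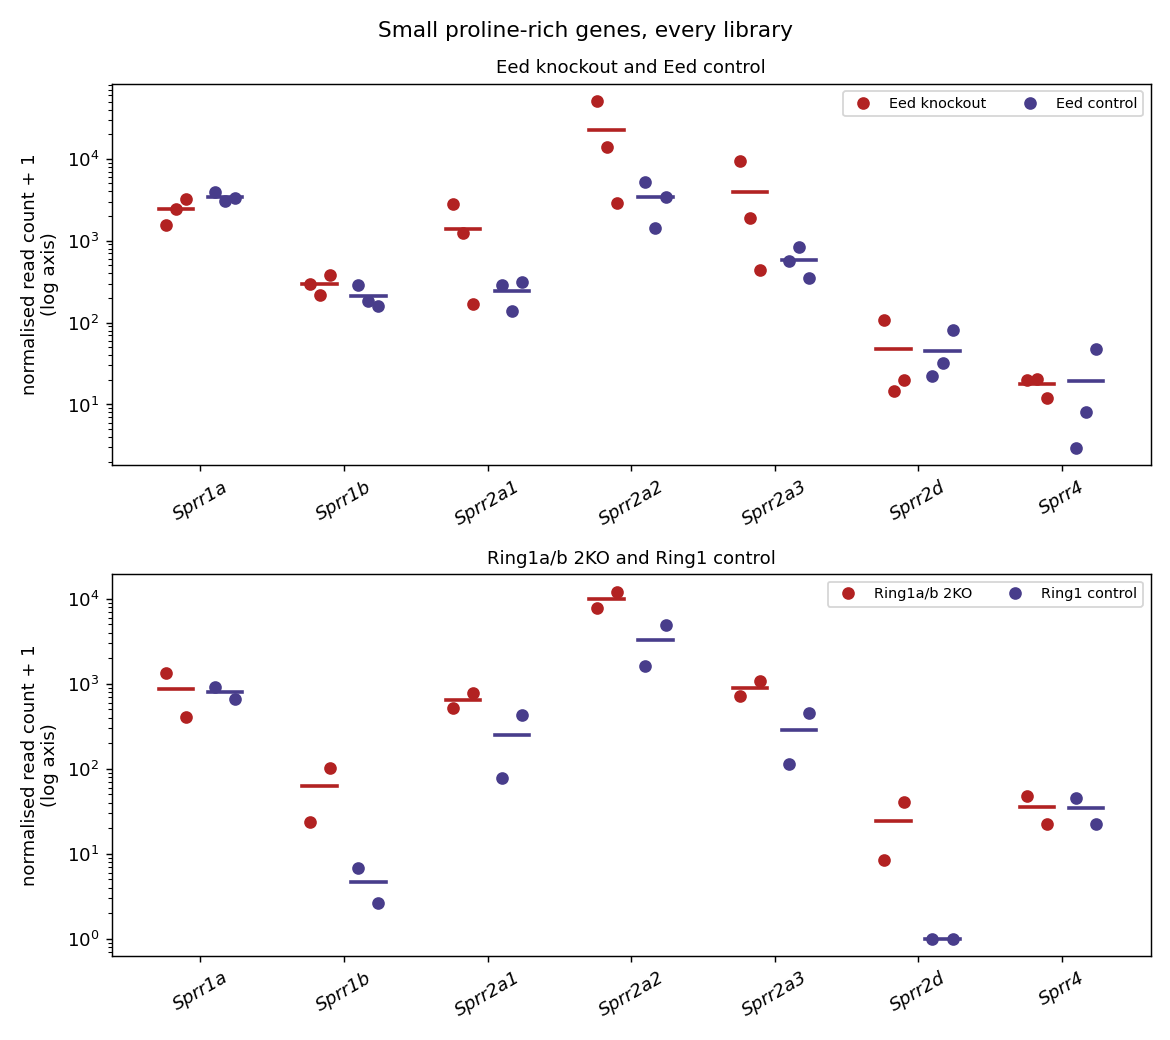
Normalised read count plus 1 (log axis) of 7 Sprr genes in each library, knockouts left of their controls, with bars at group means. In the Ring1 table Sprr1b, Sprr2d and the 3 Sprr2a genes do not overlap between groups, while in the Eed table Eed knockout 1 lies far above the other libraries for the Sprr2a genes and knockout 3 lies among the controls.

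Over all 28 members that passed the filter in the Ring1 table, 20 were lower and 8 higher in the Ring1a/b 2KO, where 7659 of all 15310 genes (50%) were lower. Of the 28, 13 were lower without overlap (background 21.5%) and 5 higher without overlap (background 21.4%). These counts include members that passed the filter through 1 group alone, and the Sprr2a genes, whose counts are not separate. The median log2 difference was -0.94. It was -0.34 without Ring1 control 1 and -2.05 without Ring1 control 2. The other 15 members in that table had a mean under 5. The whole complex together did not fall: summed over all members it was 11702 and 15606 in Ring1a/b 2KO against 8309 and 8837 in Ring1 controls, a sum that the Sprr2a genes dominate.

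Layer markers were set beside these genes. Lor, Flg2, Kprp, Crct1 and Lce1m, picked after their values were seen, summed to 574 and 262 in Ring1a/b 2KO and 3395 and 1565 in Ring1 controls. Krt10, a keratin of all layers above the basal one, had 19962 and 14362 in Ring1a/b 2KO and 14251 and 15243 in Ring1 controls, so the groups overlapped. Per 1000 Krt10 reads the 5 genes had 28.7 and 18.2 in Ring1a/b 2KO against 238 and 103 in Ring1 controls. Krt1, its partner keratin, rose in the authors' deposited table, with 24228 and 35925 in Ring1a/b 2KO and 13947 and 9866 in Ring1 controls (1.33 ± 0.27; adjusted p = 0.00247 in that table). Other suprabasal genes did lie below both controls: Krt80 had 2373 and 1217 in Ring1a/b 2KO and 3169 and 3267 in Ring1 controls, Dsg1a, a desmosomal cadherin, had 9363 and 4615 in Ring1a/b 2KO and 12444 and 12392 in Ring1 controls, and Krt78 had 125 and 7.17 in Ring1a/b 2KO and 158 and 128 in Ring1 controls, none of them called. So Krt1 and Krt10 did not lie lower with these 5 outer-layer genes, while 7 of the 10 suprabasal genes did lie lower.

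**Figure D3:**
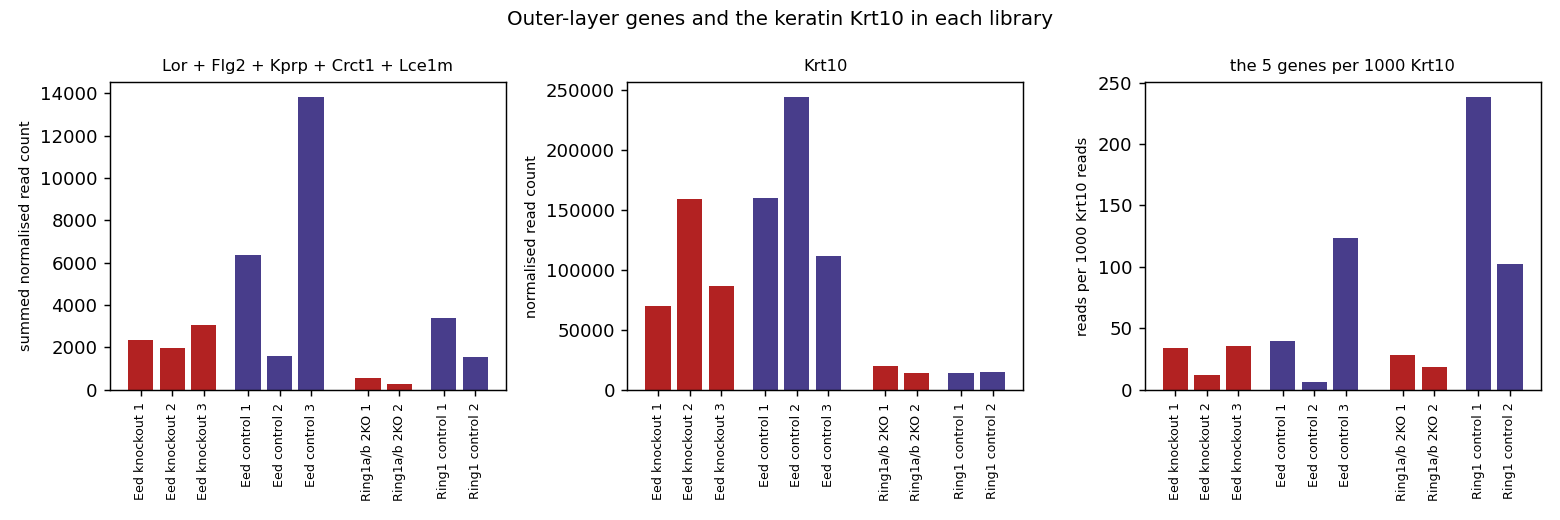
Summed normalised read count of Lor, Flg2, Kprp, Crct1 and Lce1m (left), Krt10 (middle) and the 5 genes per 1000 Krt10 reads (right) in each library, knockouts left of their controls; the Eed and Ring1 tables were normalized separately. The ratio is 28.7 and 18.2 in Ring1a/b 2KO against 238 and 103 in Ring1 controls, and spans 6.55 to 124 among Eed controls alone.

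Genes that work with the envelope were described by lists. Of 17 crosslinking and scaffold genes, 10 were lower and 7 higher in the Ring1a/b 2KO (median -0.26). The authors' deposited table called 2 of them lower and 0 higher (background over all genes 0.31% lower and 1.18% higher). The 2 were corneodesmosin (Cdsn), an adhesion protein of cornified cells, with 214 and 75.3 in Ring1a/b 2KO and 843 and 475 in Ring1 controls (adjusted p = 0.00334 in the authors' deposited table), and Lypd5, with 95.2 and 80.7 in Ring1a/b 2KO and 383 and 204 in Ring1 controls (0.0118 in that table). Cst6, a protease inhibitor of the epidermis, had 292 and 279.7 in Ring1a/b 2KO and 504 and 439 in Ring1 controls, and Calml3 had 634 and 244 in Ring1a/b 2KO and 153 and 145 in Ring1 controls. Of 14 genes for attaching lipids to the envelope, 12 were lower and 2 higher (median -0.29), with 1 called lower in the deposited table. It was Sdr9c7, an enzyme of envelope lipid synthesis, with 78.5 and 64.5 in Ring1a/b 2KO and 383 and 151 in Ring1 controls (adjusted p = 0.0247 in the authors' deposited table). The lipoxygenases of that pathway lay lower without a call: Alox12b had 30.9 and 21.5 in Ring1a/b 2KO and 93.2 and 78.1 in Ring1 controls, and Aloxe3 had 93.3 and 71.7 in Ring1a/b 2KO and 228 and 126 in Ring1 controls.

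Filaggrin processing and desquamation had 8 of 17 fitted genes lower and 9 higher (median 0.02), with 0 called. Spink5, an inhibitor of the kallikreins that shed cornified cells, had 1392 and 561 in Ring1a/b 2KO and 2372 and 2082 in Ring1 controls. Suprabasal keratins and adhesion genes had 7 of 10 lower (median -0.47), with Krt1 the 1 call, higher, in the deposited table. Differentiation regulators had 26 of 31 lower (median -0.54) and 0 calls. Among them Satb1, a chromatin organiser, had 836 and 651 in Ring1a/b 2KO and 1287 and 1419 in Ring1 controls, and Pou2f3, a POU factor of the upper layers, had 1841 and 1330.4 in Ring1a/b 2KO and 3015 and 2808 in Ring1 controls. The neighbouring S100 genes had 8 of 11 higher (median 0.23), with S100a8, an alarmin of inflamed skin, called higher in the authors' deposited table (24.1 and 190.1 in Ring1a/b 2KO and 6.25 and 6.65 in Ring1 controls, adjusted p = 0.00510). Over all 16 lists, limma and edgeR each called 0 genes, with 43 of 183 fitted genes under an unadjusted p of 0.05 in limma, 22 lower and 21 higher (background 10.4%, 4.81% lower and 5.62% higher). The authors' deposited table called 15 of the 213 listed genes, each counted once (background 1.49%).

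Other lists moved with the same contrast. Of 17 fitted wound and stress keratinocyte genes, 13 were higher (median 1.63), and the list summed to 19329 to 35641 in Ring1a/b 2KO against 5851 to 11757 in Ring1 controls. The authors' deposited table called 5 of them higher and 1 lower (background over all genes 1.18% higher and 0.31% lower). Krt6a, a keratin of wound edges, had 1788 and 4465 in Ring1a/b 2KO and 147 and 389 in Ring1 controls, Stfa3 had 7484 and 19899 in Ring1a/b 2KO and 1386 and 1735 in Ring1 controls, and the growth factor Ereg was the lower one, with 43.9 and 32.3 in Ring1a/b 2KO and 347 and 123 in Ring1 controls. Basal keratinocyte genes had 13 of 15 lower (median -0.48) and summed to 290641 to 336190.0 in Ring1a/b 2KO against 349924 to 423205 in Ring1 controls. Krt5 had 121324 and 107871 in Ring1a/b 2KO and 133542 and 113885 in Ring1 controls, Krt14 had 85106 and 77544 in Ring1a/b 2KO and 92857 and 57540.5 in Ring1 controls, and the sorting marker Itga6 had 9738 and 9343 in Ring1a/b 2KO against 17301 and 13462 in Ring1 controls. Hair follicle genes summed to 5897 to 12031 in Ring1a/b 2KO and 9223 to 10685 in Ring1 controls, with Lhx2, Cd34 and Lgr5 called higher in the authors' deposited table and Krt73 at 0 in both controls. Melanocyte markers summed to 353 to 658 in Ring1a/b 2KO and 241 to 311 in Ring1 controls, with 6 of 7 higher and Tyrp1 at 0 in both controls. Fibroblast markers summed to 2607 to 2734 in Ring1a/b 2KO and 2004 to 2554 in Ring1 controls, with 6 of 7 higher and Pdgfrb at 0 in both controls. Summed ranges in Ring1a/b 2KO and Ring1 controls overlapped for hair follicle genes and for the other 5 lists. They were 1551 to 2796 and 2046 to 2687 for myeloid markers, 1121 to 1212 and 1148 to 1437 for T cell markers, and 3396 to 6372 and 5132 to 8461 for sebaceous genes. Endothelial markers had 434 to 549 in Ring1a/b 2KO and 492 to 535 in Ring1 controls, and red blood cell genes 35.8 to 62.8 in Ring1a/b 2KO and 33.2 to 42.2 in Ring1 controls. Mitochondrially encoded reads took 8.16% and 12.7% of Ring1a/b 2KO libraries and 6.51% and 7.28% of Ring1 controls. The part of these lists, of the mitochondrial share and of the Y-linked level in the differences of the complex was not tested.

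The second comparison asks the same of epidermis without Eed. No member was called: limma had 0 of 33 (background 0.0%), with 0 at an unadjusted p under 0.05 (background 4.73%, 1.33% lower and 3.4% higher) and a smallest adjusted p of 0.989. The authors' deposited table called 0 of 35 (background 0.761%, 0.0539% lower and 0.707% higher). edgeR called 0 of 27 (background 0.0%), with 8 under an unadjusted 0.05 (background 4.6%). No fitted member had groups without overlap, against backgrounds of 4.15% lower and 5.06% higher. In limma 19 members were lower and 14 higher, where 48.8% of all genes were lower, and the median log2 difference was -0.09 (0.01 over all 16122 genes). By the fold changes in the authors' deposited table, 24 of the same 33 were lower and 9 higher, where 49.8% of those genes were lower, and the median was -0.998 (0.0018 over all). The limma median was -1.37 without Eed control 2 and 0.92 without Eed control 3, and 11 members stayed under the filter. In the authors' deposited table, 9 of the 33, 5 of them lower, had an unadjusted p under 0.05 (background 6.05%).

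For the outer-layer genes the Eed controls spread more widely than the Eed knockouts. Lor had 637, 547 and 833 in Eed knockouts 1 to 3 and 1635, 450.5 and 3748 in Eed controls 1 to 3 (-1.08 ± 0.62). Flg2 had 691, 579 and 1121 in Eed knockouts and 2459, 536 and 4188 in Eed controls (-1.21 ± 0.64). Kprp had 440.1, 452 and 554 in Eed knockouts and 1093, 361 and 2559 in Eed controls (-1.06 ± 0.57). In each case control 2 lay under all knockouts and control 3 far above them, with a narrower range in the knockouts than in the controls. The same held for Crct1, with 288, 114 and 197 in Eed knockouts and 454, 84.2 and 1172 in Eed controls (-0.93 ± 0.81), and for Lce1m, with 317, 272 and 358 in Eed knockouts and 708, 165 and 2153 in Eed controls (-1.01 ± 0.74). The sum of these 5 genes was 2372, 1963 and 3063 in Eed knockouts and 6349, 1597 and 13819.9 in Eed controls. DESeq2 on the recovered reads without Eed control 2 called 7 members lower (Kprp, Flg2, Crct1, Lor, Lce1a1, Lce1m and Hrnr), and it called 0 without control 1 or control 3. Over all genes it called 188 without control 2, 50 without control 1 and 81 without control 3, against 127 with all libraries.

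Hrnr had 448, 605 and 624 in Eed knockouts and 1129.7, 287 and 1798 in Eed controls (-0.59 ± 0.56), and Flg had 459, 427 and 564 in Eed knockouts and 747, 246 and 1295 in Eed controls (-0.37 ± 0.51), with the same order of controls. Ivl had 104, 227 and 264 in Eed knockouts and 266, 96.4 and 431 in Eed controls (-0.27 ± 0.57). Tchh was level, with 550.4, 866 and 823 in Eed knockouts and 789, 858 and 592 in Eed controls (-0.01 ± 0.25). Crnn and Rptn stayed under the filter: Crnn had 22.8, 4.15 and 0 in Eed knockouts and 0 in every Eed control, and Rptn had 3.60, 1.04 and 4.73 in Eed knockouts and 0, 10.1 and 5.06 in Eed controls.

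Of the 15 fitted Lce genes 9 were lower and 6 higher in the Eed knockout by limma on log2(value + 1), with a median of -0.09. By the fold changes in the authors' deposited table all 15 were lower, with a median of -1.40, so the direction of 6 of them depends on the estimate. Lce1h and Lce1k, with knockout means of 4.29 and 2.10 and control means of 17.5 and 15.5, passed the filter only through the controls. Lce1a1, which DESeq2 called only without control 2, had 40.8, 30.1 and 68.6 in Eed knockouts and 146, 35.5 and 323 in Eed controls (-1.42 ± 0.74). Lce1c had 26.4, 53.9 and 67.8 in Eed knockouts and 85.7, 14.2 and 395 in Eed controls (-0.78 ± 1.01). Lce1b had 36.0, 121 and 64.7 in Eed knockouts and 110.1, 0 and 392 in Eed controls (0.92 ± 1.93). For Lce1c and Lce1b control 2 was again the lowest library, at 0 for Lce1b. It was at 0 for 15 of the 20 Lce genes in this table, control 3 was at 0 for none, and the knockouts were at 0 for 4 to 6. Lce1a2 had 102, 17.6 and 33.9 in Eed knockouts and 67.2, 4.06 and 235 in Eed controls (-0.09 ± 1.25). Lce1d had 8.39, 40.4 and 41.8 in Eed knockouts and 81.8, 0 and 188 in Eed controls (0.03 ± 1.69). Lce6a had 18.0, 12.4 and 49.7 in Eed knockouts and 101, 0 and 110.2 in Eed controls (0.06 ± 1.60), and Lce1l had 26.4, 14.5 and 47.3 in Eed knockouts and 65.3, 0 and 132 in Eed controls (0.41 ± 1.56). For genes with a 0 in control 2, such as Lce1d and Lce6a, the log2 difference sits near 0 although the knockout mean is under the control mean. The 5 Lce3 genes, known from the human skin as genes induced by injury, summed to 2.40, 0 and 0.789 in Eed knockouts and 0.974, 0 and 43.5 in Eed controls.

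The Sprr genes had 8 of 10 fitted members higher in the Eed knockout, with a median of 0.72 and no call. Among the 8 are the 3 Sprr2a genes, whose counts are not separate, and Sprr2k, which passed the filter only through the knockouts. Without the Sprr2a genes the family summed to 2128, 2691 and 3686 in Eed knockouts and 4312, 3284 and 3682 in Eed controls. Sprr2a1, Sprr2a2 and Sprr2a3 summed to 63099, 17205 and 3489 in Eed knockouts, against 6123, 2398 and 4125 in Eed controls. Knockout 1 stood far above every other library and knockout 3 among the controls. Sprr2a2 had 50849, 14065 and 2889 in Eed knockouts and 5273, 1432 and 3463 in Eed controls (2.10 ± 0.96), Sprr2a3 had 9454, 1892 and 433 in Eed knockouts and 566, 829.9 and 351 in Eed controls (1.85 ± 0.97), and Sprr2a1 had 2795, 1248 and 167 in Eed knockouts and 284, 137 and 311 in Eed controls (1.86 ± 0.88). DESeq2 without Eed knockout 3 called the 3 higher, in a fit with 144 calls over all genes, against 127 with all libraries. Sprr1a had 1569.6, 2434 and 3225 in Eed knockouts and 3982, 3059 and 3347 in Eed controls (-0.58 ± 0.26). Sprr1b had 296, 215 and 379 in Eed knockouts and 287, 182 and 159.8 in Eed controls (0.51 ± 0.34). Sprr2k, at a low level, had 28.8, 0 and 32.3 in Eed knockouts and 3.90, 0 and 2.02 in Eed controls.

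In the Eed knockout limma and edgeR each called 0 genes of the 16 lists, with 27 of 194 fitted genes under an unadjusted p of 0.05 in limma, 12 lower and 15 higher (background 4.73%, 1.33% lower and 3.4% higher). The authors' deposited table called 7 of the 213 listed genes, each counted once (background 0.761%, 0.0539% lower and 0.707% higher). Crosslinking and scaffold genes had 13 of 17 lower (median -0.37), among them the crosslinking enzyme Tgm1, with 219, 84.0 and 168 in Eed knockouts and 271, 249 and 488 in Eed controls, and Cst6, with 898, 1295 and 1289 in Eed knockouts and 1590.4, 2368 and 1835 in Eed controls. Lipid attachment genes had 13 of 14 lower (median -0.42), with Alox12b at 98.3, 57.0 and 148 in Eed knockouts and 271, 188 and 517 in Eed controls. Filaggrin processing genes had 8 of 18 lower (median 0.11), with Spink5 at 1447, 3991 and 2958 in Eed knockouts and 5076, 4848 and 6151 in Eed controls. Suprabasal keratins and adhesion genes had 9 of 10 lower (median -0.56). The exception, Krt2, a keratin of the late spinous and granular layers, rose in the authors' deposited table (536, 2059 and 354 in Eed knockouts and 42.9, 162 and 135 in Eed controls, adjusted p = 0.000317). Krt10 had 70173, 159313 and 86443 in Eed knockouts and 159867, 243861 and 111761 in Eed controls, and Krt1 had 39732, 104301 and 44435 in Eed knockouts and 77567, 125012 and 56455 in Eed controls. Control 2, with the lowest outer-layer genes, thus had the highest Krt10. Differentiation regulators had 25 of 31 lower (median -0.26), with Rora, a nuclear receptor, at 10024, 12537 and 17520.3 in Eed knockouts and 23097, 17157 and 25265 in Eed controls, and Klf4, a barrier regulator, at 31159.7, 35734 and 51439.8 in Eed knockouts and 74863, 55022 and 56043 in Eed controls. The S100 genes had 9 of 12 higher (median 0.09).

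Wound and stress genes had 13 of 17 higher in the Eed knockout (median 0.72) and summed to 32277 to 154345 in Eed knockouts and 19082 to 33349 in Eed controls. Krt6a (34323, 4531 and 7209.9 in Eed knockouts and 1634, 808 and 1342 in Eed controls), Stfa3 (64343, 14028 and 4482 in Eed knockouts and 2413, 2117 and 1505 in Eed controls) and Gjb2 (1375, 252 and 308 in Eed knockouts and 124, 53.8 and 85.0 in Eed controls) rose in the authors' deposited table. All 3 were highest in knockout 1, as the Sprr2a genes were. Basal genes had 10 of 15 lower and summed to 1441089.9 to 1914117 in Eed knockouts and 1417321 to 1963294 in Eed controls, with Krt5 at 737779.5, 531983 and 497711 in Eed knockouts and 410630.1, 721908 and 482714 in Eed controls. Summed ranges in Eed knockouts and Eed controls overlapped for hair follicle genes (32410.3 to 33243 and 28634 to 44413), sebaceous genes (9734 to 12654 and 10826 to 14559), myeloid markers (6565 to 9988 and 5222 to 9094), T cell markers (4597 to 6351 and 4097 to 6104) and fibroblast markers (4019 to 8554 and 3338 to 4935). They also overlapped for melanocyte markers (558 to 966 and 713 to 792), endothelial markers (318 to 585 and 212 to 587) and red blood cell genes (38.4 to 188 and 139 to 329). Of these lists the fibroblast gene Dcn, the melanocyte gene Mlana and the hair follicle gene Krt27 rose in the authors' deposited table. The part of these lists in the values of the complex was not tested.

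**Figure D4:**
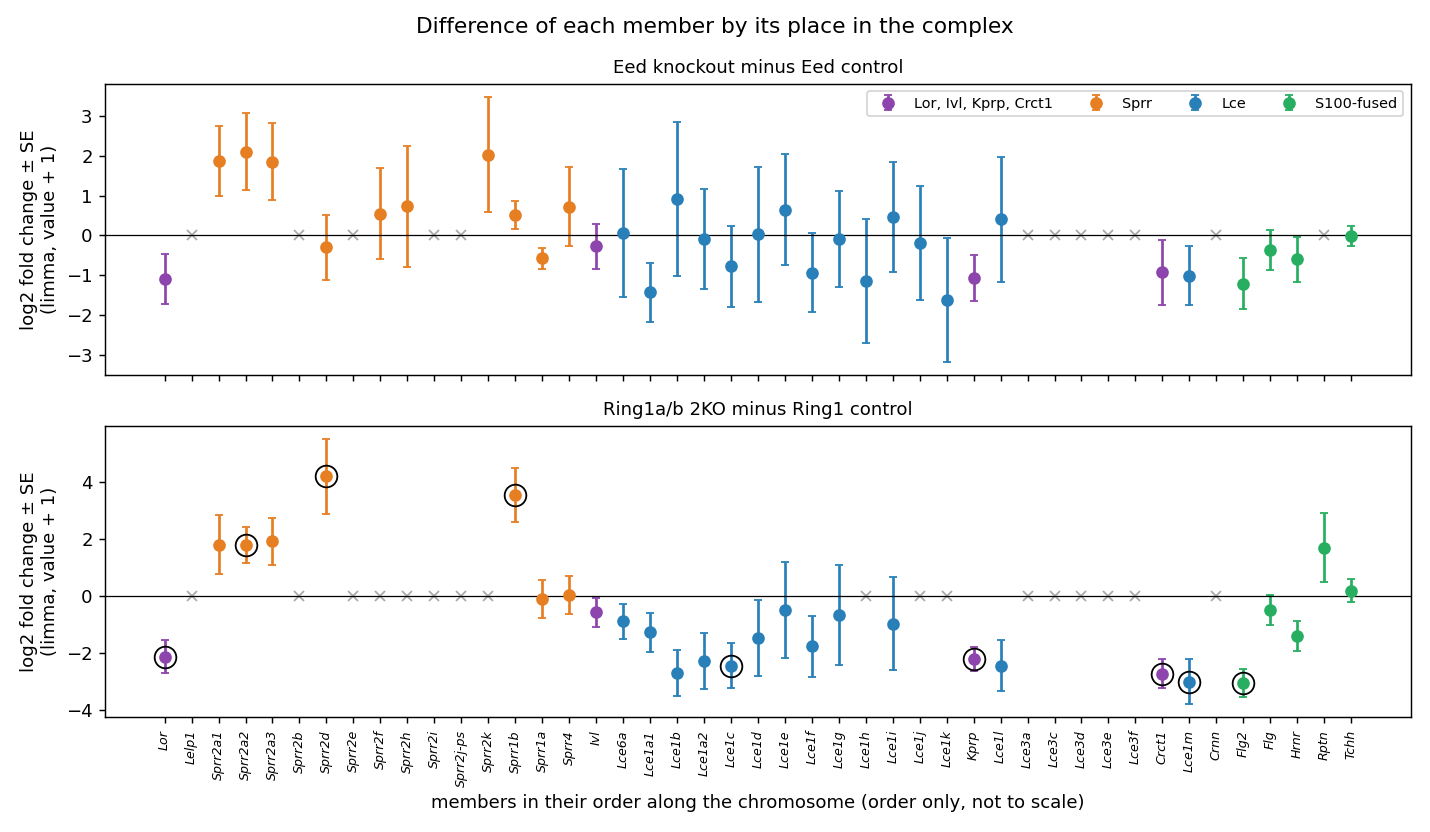
Log2 fold change with its SE (limma on log2 of the value plus 1) of each member in its order along the chromosome, for the Eed knockout (top) and the Ring1a/b 2KO (bottom); grey crosses at 0 are members not fitted in that table, and black rings mark the 9 calls of the authors' deposited table. The Sprr2a block lies above 0 in both panels, and the Lce, Lor, Kprp, Crct1 and Flg2 points of the lower panel lie under 0.

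The effects of the 2 knockouts were compared in 1 model over all 10 libraries. Of the 27 members fitted in both tables, 14 were lower and 5 higher in both knockouts, 2 were lower in the Eed knockout and higher in the Ring1a/b 2KO, and 6 the reverse by limma. By the fold changes in the authors' deposited table, 19 were lower and 6 higher in both, 2 were lower in the Eed knockout and higher in the Ring1a/b 2KO, and 0 the reverse. For the difference between the 2 effects, limma called 0 of 27 members (background 0.0%), with 2 at an unadjusted p under 0.05 (background 1.89%). edgeR called 0 of 35 members (background 0.0%), with 2 at an unadjusted p under 0.05 (background 2.0%). Under limma, those 2 were Sprr1b, whose Eed effect minus Ring1a/b effect was -3.03 ± 0.88, and Sprr2d, at -4.51 ± 1.41 (log2, ± SE). Flg2 came next, at 1.85 ± 1.10. No outer-layer gene was therefore shown to differ in the Ring1a/b 2KO from what it did in the Eed knockout.

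Levels differ strongly between members, compared here in controls per kb of the longest transcript annotated as protein-coding. In Eed controls Sprr1a had a mean of 4296 normalised read counts per kb, Sprr2a2 1182, Lce1m 1154, Lor 1093, Crct1 794, Flg 512 and Kprp 490.1. For Flg the transcript used has 1488 bases, while its 10 annotated transcripts hold 8007 different 31-base words. Its level per kb may therefore be too high, and its rank is uncertain. In Ring1 controls Sprr2a2 led with 1133 and Sprr1a had 988, followed by Crct1 with 515, Lce1m with 408, Lor with 297 and Kprp with 209.8. Lce1m, Lor and Crct1 do not differ beyond their spread in Eed controls, where each spans a wide range: Lor reached 253 to 2107 per kb and Lce1m 189 to 2464. Hrnr, at 95.8 per kb in Eed controls and 53.1 in Ring1 controls, and Tchh, at 128 and 21.7, stood near the bottom of the members with a mean of at least 50.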

How the data were processed

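The authors deposited 2 gene tables, limited to protein-coding genes, 1 for the 6 Eed libraries and 1 for the 4 Ring1 libraries. kallisto 0.42.5, DESeq2 3.11 and the mm10 build are named in the submitters' processing notes. Per the labels' protocols, 10 ng of total RNA was amplified and sequenced as paired-end 150-base reads. No source used here gives the strand setting, and antisense reads cannot be set apart.

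The deposited value of a gene in a library is its count divided by that library's size factor (a signal unit). In every library 100% of values were whole multiples of 1 step (tolerance 1e-06), which gave back the reads. The log2 fold changes and the p-values, raw and adjusted, in the tables are the authors' deposited values. No depth interval is given beside the sums, and the floor of 3 reads covers counting error only.

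limma 3.58.1 (trend, robust; R 4.3.3) was fitted to log2(value + 1) of genes with a mean of at least 5, each knockout against its own controls, with Benjamini-Hochberg adjustment over all genes and a threshold of 0.05. The difference between the 2 effects was a contrast over all 10 libraries. Alternatives were a mean of at least 50 or no filter, quantile normalization, pseudocounts of 5 and 0.5, a threshold of 0.1, a replicate block, edgeR 4.0.16 and DESeq2 1.42.0 on the recovered reads, the deposited calls, and each library left out; DESeq2 without each library was chosen after seeing the data. The scripts were tested on simulated data. Words of 31 bases shared between GENCODE M21 transcripts describe how far kallisto can separate members. Promoters come from RefSeq.

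Members and gene lists were chosen with earlier results of these data known. Members with a mean of at least 50 have their values in every library in the text. Others are given as counts and ranges, with up to 4 in values, and any member called is named. Of the 16 lists, written from general knowledge, genes with the smallest unadjusted p (pathway lists) or the highest mean (other lists) are named. Genes called in the deposited table, Itga6 and the genes between the members were named after their values were seen. Epcam, Gata3, Trp63, S100a8 and S100a9 stand in 2 lists each.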

Additional observations from a re-analysis of the deposited data

How the results depend on the processing

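For the Ring1a/b 2KO, where limma called 0 members, DESeq2 on recovered reads and the authors' deposited table called 9, and limma with a replicate block called 5 (Crct1, Flg2, Kprp, Lce1m and Lor). Over all genes the block fit called 36 of 15310, against 6 without the block. Leaving out 1 library, limma called 0 to 4 (4 without Ring1a/b 2KO replicate 1) and DESeq2 0 to 9. The fit without Ring1a/b 2KO replicate 1 leaves a lone knockout library. Calls over all genes also rose there, in limma and in DESeq2, so its member calls do not single out the complex. For the Eed knockout, limma called 0 members under each alternative and DESeq2 0 to 7 on leaving out 1 library. Over all genes those DESeq2 fits called 30 to 189, against 127 with all libraries. No label says what the replicate numbers mark, so the block rests on a shared number only: same-numbered deviations correlated at -0.11, 0.15 and 0.21 in the Eed table and 0.14 in the Ring1 table, and the block changed no other count of members called. The median member difference was -0.27 with no filter in the Ring1a/b 2KO. Without 1 library it ranged from -2.05 to -0.34 there by limma and to 0.69 by DESeq2, and from -1.37 to 0.92 in the Eed knockout by limma, with -1.52 the lowest by DESeq2. In the Eed knockout Lce1d turned to -0.52 with a pseudocount of 5, -0.11 with quantile normalization, -1.56 in edgeR and -1.57 in DESeq2, Lce1b to -1.18 in both, and Tchh to 0.013 in edgeR and 0.0010 in DESeq2. Sprr1a in the Ring1a/b 2KO turned to 0.16 in edgeR and 0.13 in DESeq2. Directions also turned on leaving out 1 library. In the Eed knockout the ranges were -1.03 to 0.16 for Flg, -0.87 to 0.20 for Ivl, -1.64 to 1.13 for Lce1a2, -1.65 to 2.66 for Lce1b, -1.98 to 0.37 for Lce1c, -2.29 to 1.49 for Lce1d and -0.17 to 0.20 for Tchh. In the Ring1a/b 2KO they were -1.10 to 0.12 for Flg, -1.14 to 0.0024 for Ivl, -0.94 to 0.75 for Sprr1a and -0.27 to 0.63 for Tchh. The causes were not tested. Of the other results, 83 summaries and 404 single-member values kept their direction and call. With 2 and 3 libraries a group, spread between libraries limits every call, and members under a mean of 5 rest on few reads.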

Other observations

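7 genes of the tables that are not members lie between the first and the last member on chromosome 3: Prr9, Gm9774, 2310046K23Rik, Smcp, 2210017I01Rik, 2310050C09Rik and Gm4858. The authors' deposited table called 2 of them in the Ring1a/b 2KO, in opposite directions. Prr9, a proline-rich gene near Lor, rose, with 118 and 12.6 normalised read counts in Ring1a/b 2KO and 4.17 and 3.32 in Ring1 controls (adjusted p = 0.0247 in the authors' deposited table). 2310050C09Rik fell, with 53.2 and 23.3 in Ring1a/b 2KO and 327 and 106 in Ring1 controls (adjusted p = 0.0147 in that table). Among Eed libraries 2310050C09Rik had 225, 339 and 258 in Eed knockouts and 502, 246 and 1165 in Eed controls, where control 2 is again the lowest control and control 3 the highest library. Smcp, a sperm mitochondrial gene, had 41.4 and 17.9 in Ring1a/b 2KO and 31.3 and 19.9 in Ring1 controls, so the groups overlapped.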
